A study of Rattus norvegicus with 12 samples.

Results

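Isoform usage was compared between heart muscle cells kept with and without JQ1, a small molecule that occupies the acetyl-lysine pockets of BET bromodomain proteins. The measure was the isoform share: the FPKM (fragments per kilobase of transcript, scaled to the library's total) of a transcript as a percentage of the summed FPKM of all transcripts of its gene. Every transcript of at least 400 nt in a gene with 2 or more such transcripts was a member, which gave 13032 transcripts of 5221 genes among the 41078 transcripts of 32883 genes listed. The cells were cardiomyocytes of Sprague-Dawley rats 1 to 3 days old. All groups had been kept with 10 µM AraC (cytosine arabinoside, which stops dividing cells) until 24 h before treatment. Treatment lasted 24 h, with acetic acid as the vehicle, with 100 nM of the peptide endothelin-1 (ET-1), which acts on endothelin receptors, or with 10 µM phenylephrine (PE), which acts on alpha-1 adrenergic receptors. Each of these was given with DMSO or with 1 µM JQ1. The 6 groups held 2 libraries each, so that 6 libraries with JQ1 stood against 6 with DMSO, paired by agonist and replicate number. Whether the 2 replicates of a group came from different cultures is not stated in the labels, and p-values therefore measure only the spread between these libraries, which may be technical.

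A gene can give rise to several transcripts through different start sites, through the choice of exons, and through different ends where the RNA is cut and polyadenylated. BET proteins bind acetylated histones and help release RNA polymerase II from its pause near the promoter, a step that the kinase P-TEFb drives and that the title of the study addresses. A gene's total and the balance of its isoforms can move apart, since the share is a ratio within the gene. In the heart, isoforms of calcium pumps, channels and signalling proteins differ in activity and in place within the cell.

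The libraries held 2.341 to 2.965 gigabases of assigned sequence, of which member genes took 26.51 to 30.16%. Of the member transcripts, 2681 were listed at 0 in every library. The share was tested for 5563 transcripts of 2458 genes whose mean was at least 1 FPKM and whose own mean share lay between 5 and 95%. Summed cardiomyocyte markers (7 genes, among them Myh6, Tnnt2, Actn2 and Ryr2, all above 0 in each library) ran from 12700 to 28400 rescaled FPKM with DMSO and from 17400 to 30400 with JQ1, higher with JQ1 in 6 of 6 pairs. The 7 did not all move alike: the total of Tnnt2 was higher with JQ1 (log2 difference 1.05) and that of Ryr2 lower (-0.64). The 6 fibroblast markers ran from 120 to 706 with DMSO and from 69.2 to 385 with JQ1, lower in all 6 pairs. The 4 smooth muscle markers ran from 412 to 832 and from 377 to 782, lower with JQ1 in 5 of 6 pairs. The 4 endothelial markers found (1.49 to 3.28 and 0.253 to 1.26) and the 4 macrophage markers (1.03 to 4.66 and 0.249 to 2.32, with 1 at 0 throughout) were near 0. In such bulk samples, fewer cells of a type and less RNA per cell cannot be told apart. The part of other cell types in the shares was not tested, other than by these values.

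JQ1 changed the isoform balance of a small set of genes. With the pairs as a block in limma, 137 of the 5563 transcripts passed an adjusted p of 0.05 (2.46%), of which 66 gained share and 71 lost it. Combined by gene, 71 of 2458 genes passed (2.89%). All adjusted p-values are Benjamini-Hochberg values from limma over all features tested. The largest shift of a gene, taken over all its member transcripts whether tested or not, was at least 40 percentage points in 10 of these genes, 20 to 40 in 18, 10 to 20 in 23 and under 10 in 20. Each of the 137 transcripts moved the same way in all 6 pairs, which 666 of the tested transcripts did (12%). For each of the 137, an exact two-sided sign-flip permutation test over the 6 pairs therefore gives 0.03125, the smallest p that this design allows. This p is unadjusted and the same for all 666. It follows from the common direction alone, so it adds no support to the calls. The 6 DMSO values lay fully apart from the 6 JQ1 values for 106 of the 137, against 236 of all tested transcripts (4.24%). The calls were made on these same values, so this is a description only.

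**Figure D1:**
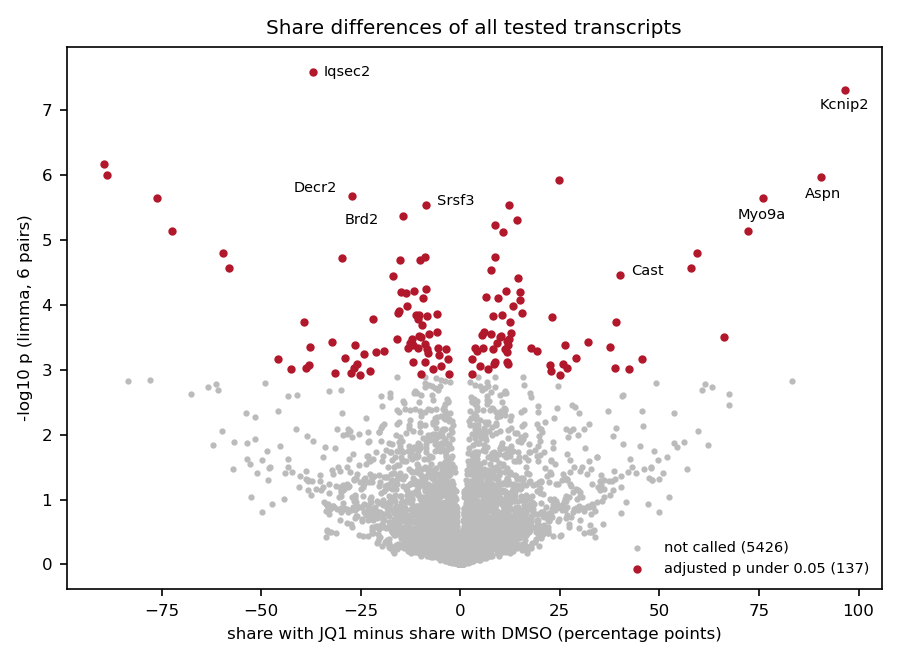
Each point is 1 of the 5563 tested transcripts: the mean share with JQ1 minus that with DMSO in percentage points (x axis) against the limma -log10 p over 6 pairs (y axis), with the 137 called transcripts in red. Most points lie within a few points of 0, and many of the larger differences are grey.

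Size alone did not make a call. A largest shift of 10 points or more was seen in 704 of the genes tested (28.6%) and in 51 of the 71 called (71.8%). Shares jumped by 50 points or more between the 2 libraries of at least 1 group for 1106 transcripts (19.9%), of which 3 were called. The count was also set by the number of pairs: without any 1 of the 6 pairs it fell to between 51 and 71 transcripts, of which the 2 ends belong to the ET-1 replicate 2 pair and the vehicle replicate 2 pair. Of the 34 genes named here, 16 were called without each pair in turn: Asph, Aspn, Atp2a2, Brd2, Cacna2d2, Cast, Cyhr1, Decr2, Hnrnpa1, Hnrnpdl, Iqsec2, Kcnip2, Myo9a, Parp8, Srr and Srsf3. Of these, Aspn and Kcnip2 had mean totals under 1 FPKM with JQ1 and passed the filter through the DMSO libraries. At the other end, Dgkz, Epb41l4b, Fgf12, Gar1, Ncf1, Stt3a, Tmem11, Tmf1 and Wdr62 (9 genes) lost the call whichever pair was left out. Their direction could not change, since their called transcripts moved one way in all 6 pairs.

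Among the targets of JQ1 itself, Brd2, which encodes a BET protein with 2 bromodomains, shifted toward its upstream-starting transcript. Brd2 (ENSRNOG00000000461, rn6 chr20:5262120-5269337, plus strand) is listed with a transcript of 12 exons and 3624 nt (ENSRNOT00000000535) and one of 13 exons and 3379 nt (ENSRNOT00000080585), whose starts lie 346 nt apart. The 12-exon transcript held 68.2 and 70.9% of the gene in the vehicle libraries, 68.6 and 66.8% with ET-1 and 65.9 and 66.2% with PE. With JQ1 it held 82.9 and 81.8%, 83.2 and 81.0%, and 83.3 and 80.5%. Every JQ1 library lay above every DMSO library. The mean rose from 67.8% ± 1.89 to 82.1% ± 1.19 (SD, n = 6), by 14.3 points (SE 0.988, adjusted p = 0.0021), while the 13-exon transcript fell by 14.4 points (SE 0.973, adjusted p = 0.002). The remaining transcript, of 5 exons, held at most 0.371% in any library. The gene's total rose at the same time, from 16 ± 1.66 to 58.6 ± 4.98 FPKM, a log2 difference of 1.92 ± 0.06 (SE, adjusted p = 1.7e-07).

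The Brd2 promoter is printed because the 2 transcripts differ at their start. The window of 300 bases spans the gene start that RefSeq gives on GRCr8, at chr20:4729829-4730128 (plus strand). Which of the deposited rn6 transcripts that start belongs to was not determined. Capitals mark matches on either strand to the TATA box TATAAA, the GC box GGGCGG and the CCAAT box CCAAT.
Brd2: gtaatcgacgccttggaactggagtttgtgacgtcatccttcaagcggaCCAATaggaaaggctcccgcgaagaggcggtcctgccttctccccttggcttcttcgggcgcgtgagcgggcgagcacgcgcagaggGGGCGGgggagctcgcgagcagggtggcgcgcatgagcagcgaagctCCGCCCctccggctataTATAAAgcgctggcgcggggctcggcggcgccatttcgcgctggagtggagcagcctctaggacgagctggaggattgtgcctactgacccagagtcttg
The window holds 1 TATA match, 2 GC box matches and 1 CCAAT match. TATAAA stands in 14.3% of all 27457 promoter windows of this length in the table, in 7.07% of those of the tested genes that matched by symbol, and in 4 of 56 called genes (7.14%). The GC box stands in 34.9, 64.8 and 80.4% of these sets and the CCAAT box in 37.7, 37.0 and 41.1%.

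Of 14 tested genes for BET proteins, P-TEFb and elongation factors, Brd2 was the 1 that was called (7.14%, against 2.89% of all genes). The median largest shift over the list was 5.34 points, against 4.56 over all 2458 genes. This list and those below were chosen with earlier results of these data known, so their counts are a description without a test. Brd3, which also encodes a BET protein, showed a largest shift of 4.84 points (gene-level adjusted p = 0.55). Ccnt2, a cyclin subunit of P-TEFb, differed by 1.97 points (0.58). Larp7, a 7SK-binding protein that holds P-TEFb inactive, differed by 6.66 points (0.36). Larger mean differences in Med12 (24.2 points) and Nelfe (22.3 points) did not pass either (0.5 and 0.57).

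Among genes of calcium handling and ion channels, Atp2a2, Asph, Slc8a1 and Cacna2d2 were called, as was Kcnip2, whose total with JQ1 lay far below the 1 FPKM minimum. With at least 1 FPKM required in both arms, an alternative added after seeing the data, 4 of 21 tested genes were called (19%), against 66 of 2351 genes (2.81%), and the median largest shift was 6.95 points against 4.32. With the filter on the overall mean alone the count was 5 of 23 (21.7%, against 2.89% of all genes), and the median 7.4 points against 4.56. As the list was chosen with earlier results of these data known, these counts do not test whether calcium genes were called more often. Atp2a2 encodes SERCA2, the pump that returns calcium to the sarcoplasmic reticulum, and is known for isoforms that differ at the 3′ end, SERCA2a of heart muscle and the widely expressed SERCA2b. It is listed with a transcript of 21 exons (ENSRNOT00000001738, 4283 nt, chr12:39553903-39603326) and one of 20 exons (ENSRNOT00000024347, 5555 nt, chr12:39554171-39601778), on the plus strand. The files do not name the protein that each transcript encodes. The 21-exon transcript held 61.0 to 69.5% in the DMSO libraries and 43.6 to 59.2% in the JQ1 libraries, and the ranges did not overlap. Its mean fell from 64.8% ± 3.31 to 49.8% ± 5.38 (SD, n = 6), by 14.9 points (SE 1.55, adjusted p = 0.01), so that both transcripts came to about equal shares. The highest JQ1 value, 59.2%, was that of vehicle replicate 2. The gene's total was 923 ± 239 FPKM with DMSO and 686 ± 164 with JQ1.

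Asph encodes aspartyl/asparaginyl beta-hydroxylase and, from the same locus, the calcium-store proteins junctin and junctate. A transcript of 5 exons and 1749 nt (ENSRNOT00000047805, chr5:22745751-22769907, minus strand) held 11.7 to 22.0% in the DMSO libraries and was listed at 0 in all 6 JQ1 libraries. Its share fell by 16.9 points (SE 1.63, adjusted p = 0.0069). The transcript of 24 exons and 6625 nt (ENSRNOT00000076426) rose from 56.7 to 71.1% (SE 1.4, adjusted p = 0.0071). A value of 0 can also be an assignment of reads to another transcript, so absence was not shown.

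Slc8a1 encodes NCX1, the sodium-calcium exchanger of the cell surface, whose transcripts differ in a block of alternative exons. It is listed with 6 transcripts that share both ends (chr6:4258991-4520604, minus strand) and run from 7 to 10 exons. One of 10 exons and 2910 nt (ENSRNOT00000043870) held 15.4 to 20.9% with DMSO and 22.7 to 27.3% with JQ1. It rose by 6.38 points (SE 0.695, adjusted p = 0.011) with no overlap, in a gene whose total stood at 606 ± 77.9 and 638 ± 40.8 FPKM. The other 10-exon transcript, of 2916 nt, is given with the comparison of agonists.

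Cacna2d2 and Kcnip2 encode auxiliary channel subunits, alpha2delta-2 of voltage-gated calcium channels and KChIP2 of the transient outward potassium current. In Cacna2d2 (chr8:116154736-116284985, plus strand) the 39-exon transcript (ENSRNOT00000021218) held 20.7 to 49.8% with DMSO and 95.1 to 99.0% with JQ1. The mean rose from 37.9% ± 11.7 to 97.4% ± 1.32, by 59.6 points (SE 4.96, adjusted p = 0.0046), and the 38-exon transcript (ENSRNOT00000081242), which ends 1239 nt further downstream, fell to 2.58%. The gene's total was lower with JQ1, at 1.76 ± 0.322 against 5.01 ± 1.77 FPKM (log2 difference -1.17 ± 0.12, adjusted p = 3.4e-05). In Kcnip2 (chr1:262892545-262916361, plus strand) the 10-exon transcript (ENSRNOT00000068278) held 0.448 to 10.9% with DMSO and was the only one of the gene's transcripts above 0 in each JQ1 library. That share rested on little sequence, and no test of it is given, because the gene passed the filter through the DMSO libraries alone. The gene's total was 0.827 to 13.0 FPKM with DMSO and 0.0305 to 0.222 with JQ1, and only 197 to 1456 bases were assigned to it in a JQ1 library, against 4772 to 87442 with DMSO.

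Not every calcium gene moved. Ryr2, the calcium release channel, differed by at most 0.246 points in any transcript (gene-level adjusted p = 0.9), although its total was lower (log2 difference -0.64, adjusted p = 0.000272). Trdn, encoding triadin of the same complex, showed 6.95 points (0.58) beside a log2 difference in total of -1.86 (adjusted p = 3.27e-06). Camk2d, the main cardiac CaM kinase II gene, showed 1.7 points (0.29). Kcnh2, the channel of the rapid delayed rectifier current, differed by 0.0275 points (gene-level adjusted p = 1) beside a log2 difference in total of -1.75 (adjusted p = 4.91e-06).

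**Figure D2:**
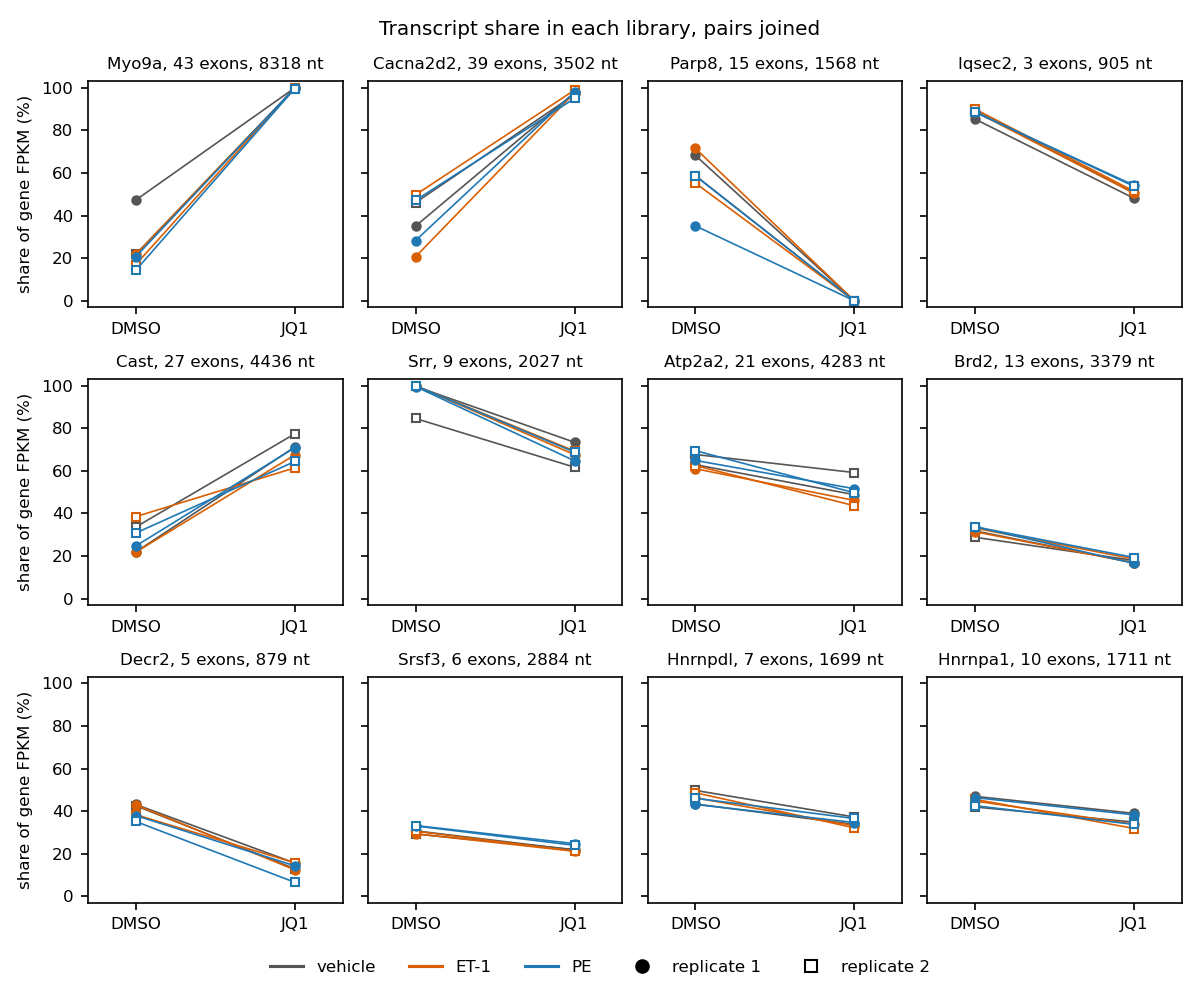
Share of the gene's FPKM in percent for 1 transcript of each of 12 genes, with a line from the DMSO to the JQ1 library of each pair, coloured by agonist and marked by replicate. Myo9a rises from between 14.3 and 47.3% to nearly 100%, Parp8's 15-exon transcript falls to 0, and Brd2, Srsf3 and Hnrnpdl move by smaller steps of like size in every pair.

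Among splicing factors, Srsf3, Hnrnpa1 and Hnrnpdl were called, 3 of 31 tested genes (9.68%, against 2.89% of all genes), and 10 of the 31 had an unadjusted p under 0.05, as had 391 of all genes tested (15.9%). This list too was chosen with earlier results of these data known, and the counts are a description. SRSF3 and HNRNPDL are known to regulate their own RNA through alternative splicing. In Srsf3 (chr20:6288267-6298213, plus strand) the 6-exon transcript (ENSRNOT00000000627) held 29.3 to 33.3% with DMSO and 21.2 to 24.8% with JQ1. It fell by 8.57 points, from 31.1% ± 1.73 to 22.5% ± 1.5 (SE 0.543, adjusted p = 0.0015). The 7-exon transcript (ENSRNOT00000092663) averaged 25.3 and 32.5% and did not pass (7.19 points, SE 1.52, adjusted p = 0.082). The 3-exon transcript (ENSRNOT00000092645) averaged 43.6 and 45% (0.67). The total of Srsf3 was 81.9 ± 3.1 FPKM with DMSO and 82.9 ± 6.89 with JQ1 (adjusted p = 0.086).

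Hnrnpa1 and Hnrnpdl, which encode RNA-binding proteins that regulate splice site choice, both shifted toward the transcript with more exons. In Hnrnpa1 (chr7:144865608-144871585, plus strand) the 11-exon transcript (ENSRNOT00000055285) ran from 53.0 to 58.0% with DMSO and from 61.0 to 68.1% with JQ1, and rose by 9.45 points (SE 1.04, adjusted p = 0.011). In Hnrnpdl (chr14:11198896-11202669, plus strand) the 8-exon transcript (ENSRNOT00000003106) ran from 50.2 to 56.8% and from 62.7 to 67.8%, and rose by 11.6 points (SE 1.2, adjusted p = 0.01). Neither gene's ranges overlapped. The transcripts that gain in these genes end 1659 and 344 nt further downstream. The starts of the 2 transcripts lie 15 nt apart in Hnrnpa1 but 508 nt apart in Hnrnpdl, which thus differs at both ends. Over the 31 splicing factors the median largest shift was 4.39 points, close to the 4.56 of all genes, and Hnrnpa2b1, Hnrnpc and Hnrnpk showed 6.73, 4.39 and 2.14 points (gene-level adjusted p = 0.12, 0.13 and 0.11).

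In the listed gene Decr2, named for a peroxisomal 2,4-dienoyl-CoA reductase of unsaturated fatty acid breakdown, share moved from a short to a long transcript. The 5-exon transcript of 879 nt (ENSRNOT00000027593, chr10:15461552-15465413, minus strand) held 35.2 to 43.2% with DMSO and 6.63 to 15.8% with JQ1, a fall of 27.1 points (SE 1.62, adjusted p = 0.0014), or of 17.9 points as a share of assigned bases, which weights long transcripts more. The 11-exon transcript (ENSRNOT00000077826), which starts within 9 nt of it and ends 29914 nt further on, rose from 22.5 to 47.4% (24.9 points, SE 1.36, adjusted p = 0.0011). The 9-exon transcript, which lies beyond the end of the short one, averaged 37.4 and 39.6% (adjusted p = 0.59). The short and the 9-exon transcripts do not overlap on the genome, so the listed gene joins separate stretches. Whether the short transcript belongs to the reductase was not tested.

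Transcripts with start sites far apart shifted against each other in Myo9a and Parp8. Myo9a encodes an unconventional myosin that also carries a GTPase-activating domain. Its 2 transcripts of 43 exons each start 37594 nt apart: ENSRNOT00000083558 (chr8:64573358-64777543, plus strand) and ENSRNOT00000015963 (chr8:64610952-64777345). The upstream-starting transcript held 47.3 and 21.8% with vehicle, 21.8 and 17.0% with ET-1 and 20.7 and 14.3% with PE. With JQ1 it held 99.7 to 100.0% in all 6 libraries. It rose from 23.8% ± 11.9 to 99.9% ± 0.115, by 76.0 points (SE 4.48, adjusted p = 0.0014). At least 183354 bases were assigned to the gene in each DMSO library and 236551 in each JQ1 library, and its total was 9.8 ± 0.689 and 11.8 ± 1.06 FPKM (log2 difference 0.34 ± 0.05, adjusted p = 0.00034). The promoter at the RefSeq start of Myo9a on GRCr8 (chr8:69044764-69045063, plus strand) is printed with the same motifs in capitals, as the 2 transcripts start far apart. Use of the start sites themselves was not tested.
Myo9a: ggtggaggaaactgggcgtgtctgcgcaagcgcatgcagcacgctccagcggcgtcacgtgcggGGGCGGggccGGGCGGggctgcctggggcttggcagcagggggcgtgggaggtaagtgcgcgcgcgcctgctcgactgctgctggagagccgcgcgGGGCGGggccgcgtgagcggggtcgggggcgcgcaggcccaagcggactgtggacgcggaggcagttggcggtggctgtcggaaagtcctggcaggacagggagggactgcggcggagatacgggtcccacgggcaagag
It holds 3 GC box matches and none to the other 2 motifs, and which deposited transcript starts there was likewise not determined.

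**Figure D3:**
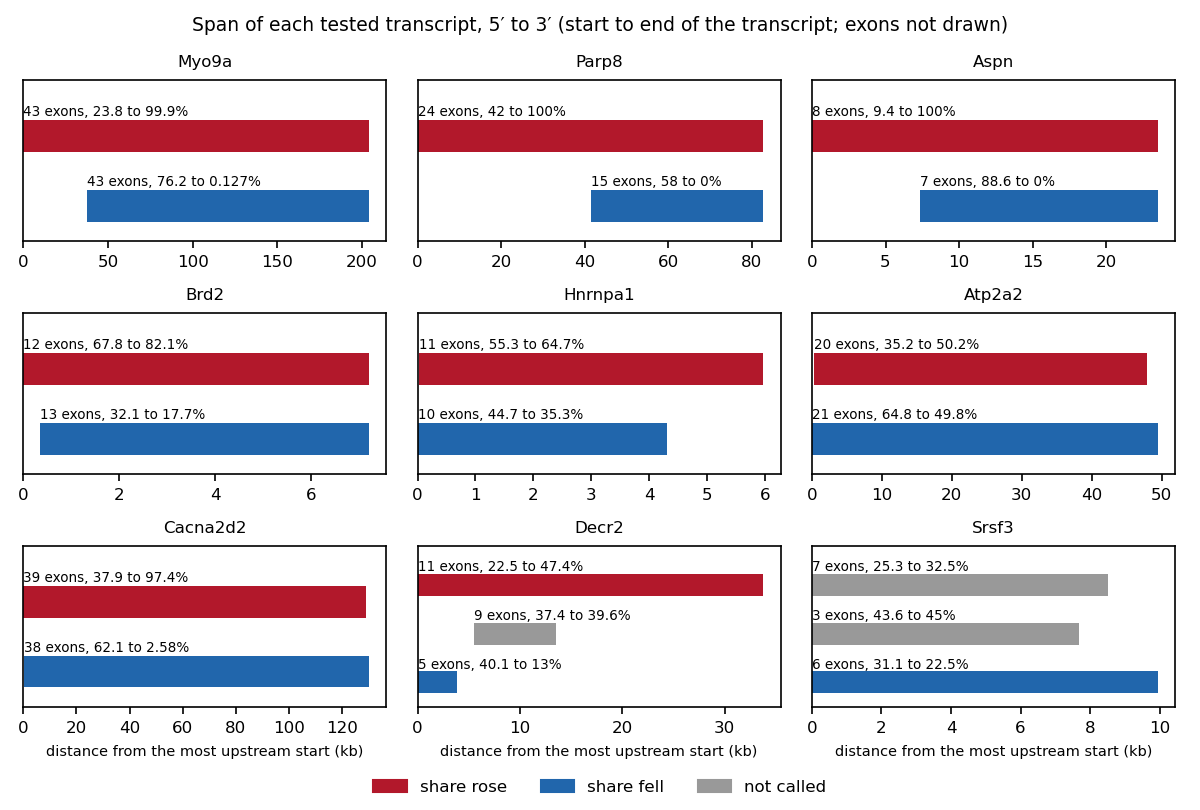
Each bar spans 1 tested transcript from its start to its end along the gene, in kb from the most upstream start, with its exon number and mean share with DMSO and with JQ1. Red bars gained and blue bars lost share. In Myo9a, Parp8, Aspn and Brd2 the transcript that starts upstream gained, and in Hnrnpa1 the one that ends further downstream.

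In Parp8, a member of the poly(ADP-ribose) polymerase family, the 24-exon transcript (ENSRNOT00000060595, chr2:49087226-49170025, minus strand) starts 41524 nt upstream of the 15-exon transcript (ENSRNOT00000073847). The shorter one held 35.2 to 71.6% with DMSO and was listed at 0 in every JQ1 library, a fall of 58.0 points (SE 5.31, adjusted p = 0.0058). The total of Parp8 was lower with JQ1, at 1.32 ± 0.537 against 3.84 ± 0.273 FPKM. In Aspn, encoding asporin, a small proteoglycan of the extracellular matrix, the 8-exon transcript (ENSRNOT00000093577, chr17:15495790-15519282, minus strand) averaged 9.4% ± 10.5 with DMSO and was the only one above 0 in each JQ1 library. It too passed the filter through the DMSO libraries, and no test is given. Its gene total was 0.936 to 7.8 FPKM with DMSO and 0.0418 to 0.278 with JQ1, with 239 to 1755 assigned bases in a JQ1 library, and the fibroblast markers given above were lower with JQ1 in all 6 pairs. AABR07044364.1, a gene with a placeholder symbol, changed its leading transcript in the same way (72.3 to 0%) at 3.21 and 0.225 FPKM. Kcnip2, Aspn and AABR07044364.1 had the lowest totals with JQ1 among the 71 called genes.

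Other shifts between transcripts with different starts were smaller or less even between libraries. Fgf12 encodes an intracellular fibroblast growth factor that binds sodium channels and is known for isoforms with different first exons. Its 5-exon transcript (ENSRNOT00000002650), which starts 241762 nt upstream of the 3-exon one, held 40.5 to 49.4% with DMSO and 54.1 to 58.8% with JQ1 (12.1 points, SE 1.72, adjusted p = 0.026). Ick, a kinase of cilium formation, moved from the upstream- to the downstream-starting transcript: the former held 57.0 to 76.6% and then 2.22 to 39.9% (-39.2 points, SE 4.96, adjusted p = 0.018). In Wdr62, a spindle pole protein, the 36-exon transcript rose from 51.1% ± 11.2 to 83.2% ± 5.8 (32.1 points, SE 4.62, adjusted p = 0.027). Mlf2 moved by 28.9 points toward its 9-exon transcript (SE 4.54, adjusted p = 0.035). Dgkz encodes diacylglycerol kinase zeta, which removes the second messenger diacylglycerol. Its downstream-starting transcript held 16.3 to 45.9% with DMSO, and with JQ1 47.7, 53.7 and 59.5% in the replicate 1 libraries of vehicle, ET-1 and PE and 99.9% in each replicate 2 library. Its rise of 45.7 points (SE 7.23, adjusted p = 0.035) thus differed between the replicate numbers. It was 29.9 points without replicate 2 and 61.6 points without replicate 1. No named transcript was called in either of these smaller fits.

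Some shifts lay between transcripts with the same ends. Cast encodes calpastatin, the inhibitor of the calcium-activated protease calpain. Its 3 tested transcripts share both ends (chr2:1452116-1561464, minus strand) and have 27, 28 and 29 exons. The 27-exon transcript (ENSRNOT00000062052) held 21.8 to 38.5% with DMSO and 61.4 to 77.4% with JQ1, a rise of 40.2 points (SE 3.76, adjusted p = 0.0068). The 29-exon transcript (ENSRNOT00000062055) fell from 44.3 to 20% (SE 3.71, adjusted p = 0.031), and the 28-exon transcript averaged 26.2 and 11.2% (adjusted p = 0.18). The total was 30.3 ± 3.43 and 30.7 ± 4.42 FPKM. Mapk9 encodes the stress kinase JNK2, and its 2 transcripts of 12 exons share both ends and differ by 5 nt in length. The one of 3684 nt (ENSRNOT00000004010) rose from 11.6% ± 6.75 to 34.7% ± 10.4 (23.1 points, SE 2.78, adjusted p = 0.016), while the one of 3689 nt averaged 71.8 and 59.3% (adjusted p = 0.096). The 11-exon transcript, which lies within them, fell from 16.6 to 6.01% (adjusted p = 0.029). In Tmem11, a protein of the mitochondrial inner membrane, the 2-exon transcript gained 22.7 points (SE 3.9, adjusted p = 0.045), with overlap between the arms.

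The smallest p-value belonged to Iqsec2, which encodes an exchange factor for Arf GTPases (chrX:22212132-22294402, plus strand). A 3-exon transcript of 905 nt (ENSRNOT00000078824) held 85.3 to 90.0% with DMSO and 48.1 to 54.2% with JQ1, and fell by 37.0 points (SE 1.09, adjusted p = 0.00014). A 2-exon transcript of 760 nt rose from 3.08 to 11.6% (adjusted p = 0.04). The transcripts of 14 and 15 exons that span the gene held up to 37.4% in single JQ1 libraries, but which of them was listed changed from library to library, and neither passed (adjusted p = 0.19 and 0.64). The total of Iqsec2 was lower, at 10.9 ± 1.33 against 33.2 ± 2.1 FPKM.

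The remaining named genes are a mixed group. Srr, serine racemase, fell in its 9-exon transcript from 97.3% ± 6.23 to 67.6% ± 4.01 (adjusted p = 0.0046), by 29.7 points, or by 16.5 points as a share of assigned bases. Stt3a, the catalytic subunit of an oligosaccharyltransferase, rose in its 18-exon transcript from 67.8 to 90.3% (22.5 points, adjusted p = 0.04). As a share of bases the rise was 12.4 points and not called. The 2 transcripts that moved do not overlap on the genome, so the listed gene joins separate stretches. Kif5c, a kinesin heavy chain, differed by 42.4 points, in favour of the transcript that starts 160775 nt further downstream. It has no test with 1 FPKM in both arms, since its total averaged 0.674 FPKM with DMSO and 2.13 with JQ1. Ncf1, a subunit of the phagocyte NADPH oxidase, moved by 38.8 points (adjusted p = 0.041), or by 20.3 as a share of bases, as its total fell from 10.9 to 1.11 FPKM, and the summed macrophage markers given above were lower with JQ1 in all 6 pairs. Gar1, a protein of H/ACA small nucleolar particles, differed by 37.7 points at totals of 1.77 and 0.894 FPKM and likewise has no test with 1 FPKM in both arms.

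Cyhr1 and Ikbip had small but even shifts. In Cyhr1 the transcript of 3408 nt ran from 36.4 to 41.1% with DMSO and from 47.4 to 53.7% with JQ1 (12.3 points, SE 0.779, adjusted p = 0.0015). In Ikbip the transcript ending further downstream ran from 42.4 to 48.4% and from 52.9 to 59.7% (10.4 points, SE 1.26, adjusted p = 0.016). Tmf1, a Golgi-associated protein, gained 19.2 points in its 17-exon transcript (adjusted p = 0.029). Dph1, of diphthamide synthesis, fell by 21.2 points in its 13-exon transcript of 2067 nt (adjusted p = 0.03), with overlap. Shifts of 25.1 points in Epb41l4b, 26.8 in Fam120b and 25.8 in Lysmd2 passed at adjusted p-values of 0.048, 0.041 and 0.039, and that of Epb41l4b was 16 points and not called as a share of bases. In the DMSO libraries the gaining transcript of Fam120b stood at 25.9 and 22.4% with vehicle and at 0 to 1.13% with either agonist.

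The leading transcript of a gene, the one with the highest share, changed in all 6 pairs with the same 2 transcripts each time in 11 genes (0.448% of those tested). Of these, 10 were called, among them AABR07044364.1, Aspn, Cacna2d2, Cyhr1, Fgf12, Ick, Ikbip, Kcnip2 and Myo9a. The 1 that was not, AC105531.1, was named after its values were seen. It moved from 50% to 46.8% in the former leader and was not called (gene-level adjusted p = 0.18). With JQ1, the mean totals of AABR07044364.1, Aspn and Kcnip2 were only 0.225, 0.153 and 0.103 FPKM. Their leading transcript with JQ1 thus rested on little sequence, and their calls add no support to a switch. With a gene mean of at least 5 FPKM required, 6 genes changed their leading transcript.

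Genes of the contractile apparatus and several other groups gave no call by limma. None of 16 sarcomere and Z-disc genes was called (8 had an unadjusted p under 0.05), with a median largest shift of 3.96 points. Tpm1, encoding alpha-tropomyosin, differed by at most 4.08 points in any of its transcripts (gene-level adjusted p = 0.19) and Tnnt2, cardiac troponin T, by 0.961 points (0.6), although the totals of both were higher with JQ1 (log2 differences 0.69 and 1.05, adjusted p = 1.53e-05 and 6.74e-06). None of 33 cytoskeleton and adhesion genes was called (3 unadjusted), none of 24 transcription factors and chromatin genes (5 unadjusted), none of 12 genes of 3′ end processing and RNA decay (1 unadjusted) and none of 10 genes of energy metabolism (3 unadjusted). No call does not mean no shift. Acacb, of energy metabolism, differed by 56.8 points (gene-level adjusted p = 0.16), and its shift differed between agonists by limma's interaction test (adjusted p = 0.00087). Among 27 signalling genes Mapk9 was the 1 called (3.7%, near the 2.89% of all genes), with 5 at an unadjusted p under 0.05. Over all 2458 genes, 391 had an unadjusted p under 0.05 (15.9%).

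Where the 2 transcripts that moved most in a gene differ was compared with all tested genes, as a description without a test. Ends within 200 nt were taken as shared. The 5′ end alone differed in 17 of the 71 called genes (23.9%, against 19.3% of all tested), the 3′ end alone in 17 (23.9% against 23.1%), both in 20 (28.2% against 36.4%) and neither in 9 (12.7% against 18.0%). In 8 the 2 transcripts did not overlap (11.3% against 3.17%). The transcript that gained was the longer one in 37 of 71 (52.1% against 49.4%) and had more exons in 31 (43.7% against 37.8%). Where 5′ ends differed, the gaining transcript started upstream in 22 of 37 called genes (59.5%) and in 709 of 1369 tested genes (51.8%). Where 3′ ends differed, it ended downstream in 22 of 37 (59.5%) and in 734 of 1462 (50.2%).

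Many more genes were called for their total than for isoform shares. The 2 tests differ in scale and in spread between libraries, so these counts do not compare the extent of change. Of the 2458 genes, 1790 changed in total (72.8%), 868 upward and 922 downward. Among the 71 genes with changed shares, 58 did (81.7%), 24 upward and 34 downward, and 13 did not pass. Enah, an actin regulator, and Lamtor2, a lysosomal scaffold protein, were chosen after their values were seen as called genes with log2 differences in total of 0.00 and 0.01. Their largest shifts were 8.73 and 9.6 points (gene-level adjusted p = 0.0038 for both). Called genes had a median of 32.3 FPKM, against 11.9 for all tested. In 4 of the 71 the mean with JQ1 was under 1 FPKM, as in 95 of all tested. With at least 1 FPKM required in both arms, 127 of 5323 transcripts (2.39%) and 66 of 2351 genes (2.81%) were called, and AABR07044364.1, Aspn, Gar1, Kcnip2 and Kif5c dropped out untested.

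**Figure D4:**
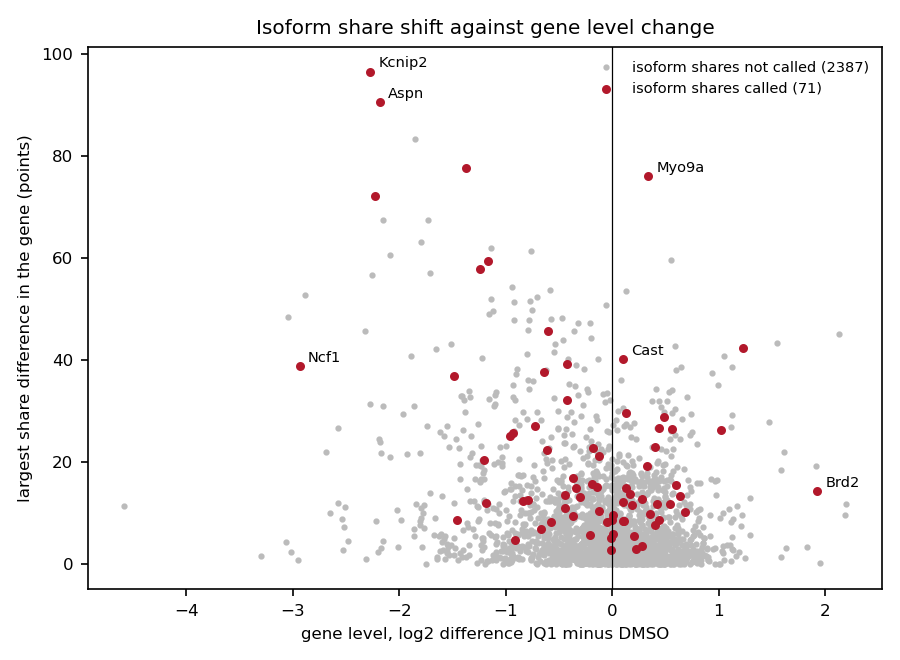
Each point is 1 of the 2458 tested genes: the log2 difference of its total, JQ1 minus DMSO (x axis), against the largest share difference among its transcripts in percentage points (y axis), with the 71 called genes in red. Called genes lie on both sides of 0. Kcnip2 and Aspn combine near-complete shifts with much lower totals, while Cast and Myo9a shift at log2 differences in total of 0.1 and 0.34.

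JQ1 shifts were also estimated within each agonist, where 4 libraries bear on a contrast and the spread is shared over all 12. In vehicle, 39 transcripts passed (0.701%), 19 upward and 20 downward. With ET-1, 65 passed (1.17%), 30 upward and 35 downward. With PE, 30 passed (0.539%), 14 upward and 16 downward. Of these lists, 20 (51.3%), 40 (61.5%) and 19 (63.3%) were also called over all 6 pairs. The 3 lists shared 12 transcripts of 7 genes: Aspn, Brd2, Decr2, Iqsec2, Kcnip2, Myo9a and Srsf3, of which Aspn and Kcnip2 are those with totals under 1 FPKM with JQ1.

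The named genes were chosen for shifts in one direction in all 6 pairs, so their values by agonist are given as a description. The 13-exon transcript of Brd2 differed by -12.9, -14.5 and -15.8 points in vehicle, ET-1 and PE, and the 6-exon transcript of Srsf3 by -8.17, -8.75 and -8.78. Iqsec2 differed by -37.9, -38.5 and -34.6 points. Fam120b differed by 13.2, 31.6 and 35.5 points. None of the 137 was called by the interaction test in limma, which tests whether the JQ1 shift differed between agonists. The 6-pair fit counts differences between agonists as spread, so this was largely fixed beforehand and does not show like shifts. The interaction test called 21 transcripts of 13 genes (0.377%), with 271 at an unadjusted p under 0.05. One of these lies in Slc8a1: its 10-exon transcript of 2916 nt (ENSRNOT00000042230) stood at 2.92 and 2.85% with ET-1 and at 49.1 and 44.6% with ET-1 and JQ1, while in the other 8 libraries it ran from 1.97 to 8.74% (interaction adjusted p = 0.0056).

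**Figure D5:**
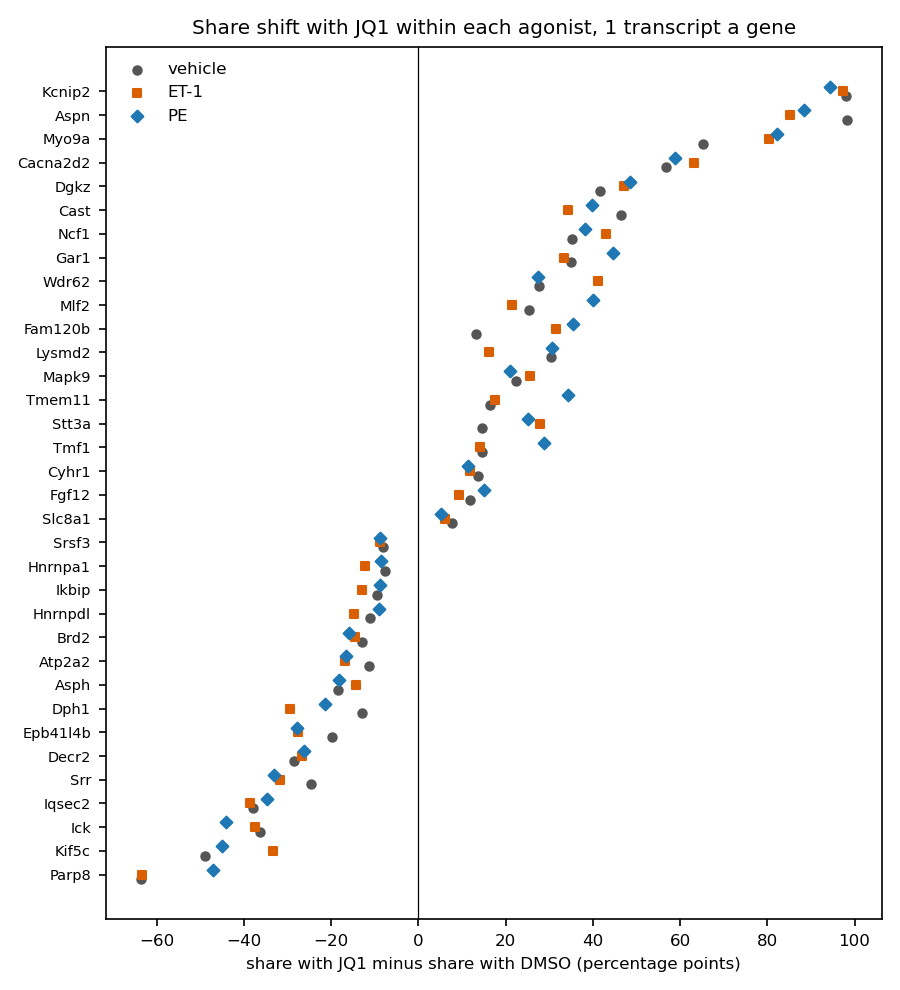
JQ1 minus DMSO difference in isoform share, in percentage points, within vehicle (circles), ET-1 (squares) and PE (diamonds), for 1 transcript of each of the 34 named genes, each point from 2 libraries a group. The points of a gene share a sign because of how the genes were chosen; those of Iqsec2 lie between -38.5 and -34.6 and those of Fam120b between 13.2 and 35.5.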

How the data were processed

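Ribosomal RNA was removed and stranded libraries (12) were made, per the labels' protocols. The tools Trim Galore 0.6.0, STAR 2.7.1a and StringTie 1.3.4d are listed in the submitters' processing notes, with build rn6. The deposited tables give, per the file headers, the FPKM of a transcript, which the authors had normalized for length and library total, and its coverage signal, a mean over bases. Within a library the 2 are proportional, so shares from either are equal. How strand was set in quantification is not stated in the labels, so overlapping genes are uncertain. A transcript's share depends on how the assembler divides reads between transcripts that share exons, and values of 0 or 100% can reflect that division. Depth enters as coverage times length (bases). Intervals for single shares were not made.

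Shares in percent were fitted in limma 3.58.1 (R 4.3.3) with a JQ1 term and 6 pairs, a variance trend on log2 gene mean FPKM and robust moderation. Short transcripts (202) counted in the gene sums only. Genes needed a mean of at least 1 FPKM and a sum above 0 in each library, and transcripts a mean share of 5 to 95%. P-values of a gene's transcripts were combined by Simes' method, and the threshold was 0.05 after Benjamini-Hochberg adjustment. Contrasts by agonist and their differences used 6 group means and the replicate number. Gene totals were tested on log2(rescaled FPKM + 0.5), with median-of-ratios rescaling (factors 0.8733 to 1.1275), a scale that understates changes of low genes. The pairing follows the design of this comparison; what a replicate number marks is not stated in the labels. The fits were also run on simulated data with normally distributed noise. The simulation did not model abrupt jumps of share between libraries, so it does not bear on them. Tables and figures were made with Python 3.11.15.

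Genes named are the 25 called genes with the largest shift that was itself called and went one way in all 6 pairs (placeholder symbols left out, 2 genes), the 10 called genes on 9 lists, and called genes with a changed leading transcript, 35 in all with symbols, of which 34 are described and 1 is not reported here. The other 36 called genes enter counts. The members, lists and rules were chosen with earlier results of these data known. Promoters came from RefSeq on GRCr8, where 56 of 71 called genes matched by symbol, and rn6 and GRCr8 coordinates were not mixed. Alternatives tried were other blocks, scales, filters, sums and pseudocounts, and leaving out pairs or replicate numbers.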

Additional observations from a re-analysis of the deposited data

Results flagged for a closer look

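The difference between the JQ1 shifts in vehicle, ET-1 and PE was tested by limma's F test over all 5563 transcripts, and 13 genes held a transcript past an adjusted p of 0.05. Values are shares in replicates 1 and 2. Each group has 2 libraries, and jumps of at least 50 points between the 2 libraries of a group occurred in 1106 of the tested transcripts (19.9%). The part of such jumps in these calls was not tested.

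In several genes the groups without JQ1 already differed. A transcript of Cdc16, a subunit of the anaphase-promoting complex, went from 76.1 and 80.3% to 3.84 and 4.53% in vehicle, from 1.36 and 6.11% to 69.1 and 76.0% with ET-1, and from 5.22 and 8.43% to 0 and 0.967% with PE (adjusted p = 4.4e-05). Lgals3, encoding galectin-3, went from 28.3 and 21.8% to 100% in vehicle and stood at 100% in all other groups (0.00019). Apc, of the Wnt pathway, went from 9.99 and 16.2% to 97.7 and 95.1% with ET-1 and from 14.1 and 11.1% to 84.4 and 96.2% with PE, and stood at 96.7 to 97.5% in vehicle (0.01). Rpp40, a subunit of RNase P, went from 52.9 and 45.5% to 0.846 and 0% with PE and stayed under 2.1% elsewhere (0.012).

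In others 1 or 2 groups with JQ1 stood apart. Dync1li2, a dynein light intermediate chain, rose from 9.25 and 8.39% to 62.8 and 61.6% with ET-1 (0.00017). Acacb, acetyl-CoA carboxylase 2, fell from 99.4 and 99.6% to 7.37 and 14.7% in vehicle and from 99.4 and 99.7% to 19.7 and 15.2% with ET-1, but stood at 100.0 and 99.5% with PE and JQ1 (0.00087). Fam110a went from 2.74 and 5.71% to 100% with ET-1 (0.012), and Saa4 from 4.76 and 11.3% to 92.3 and 90.6% with PE (0.0056). Slc8a1 rose by 44.0 points with ET-1 (0.0056), and Suco fell by 31.9 points in vehicle (0.012). Qtrt2 rose by 74.4 points with PE (0.027). Top2b, topoisomerase II beta, fell by 19.7 points with PE (0.044). AABR07035437.1 rose from 0 to 61.2 and 59.2% with ET-1 and to 63.2 and 61.5% with PE, and stayed at 0 in vehicle (0.028).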

How the results depend on the processing

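The count of 137 transcripts stayed between 114 and 163 with an arcsine scale, other gene sums, filters of 5 FPKM or none, shares of bases, or plain moderation, and became 219 as a log2 ratio to the rest of the gene, 216 with no replicate block and 210 with the replicate number as one term beside 6 group means. Of the 137 transcripts, 115 were called without the block and 119 as the log2 ratio. Same-numbered libraries did not deviate together in the shares (correlations of -0.04 to 0.12 over 15 pairs of groups), so the pairing is that of the design and was not seen in these data. Without the block, 102 genes were called. Leaving out each pair in turn gave 51 to 71 transcripts and 25 to 41 genes. With only 3 pairs, limma called 2 transcripts and 1 gene without replicate 1, and 0 and 0 without replicate 2, with 487 and 490 transcripts at an unadjusted p under 0.05; these fits hold fewer samples. In PE, 30 transcripts became 49 without the replicate block and 16 at 5 FPKM, in a smaller set. Gene totals changed in 2797 genes with no filter, where more genes were tested. Changed leading transcripts numbered 6 at 5 FPKM and 13 to 15 without a pair, against 11.

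No named transcript reversed where an alternative gave it a value: of 34, values could be had for 30 with 1 FPKM in both arms (not Aspn, Gar1, Kcnip2 and Kif5c), for 24 at 5 FPKM, for 33 as shares of bases (not Asph) and for all 34 under the others. For left-out pairs or replicate numbers, other blocks, other filters and the arcsine scale the direction was fixed beforehand. The named transcripts had all moved one way in every pair. Without regard to left-out pairs, 11 of 34 lost the call under at least 1 alternative: Dgkz and Dph1 without the block, Epb41l4b and Gar1 with the replicate number as one term, Tmem11 with plain moderation, and these 5 as well as Fam120b, Kif5c, Lysmd2, Mlf2, Ncf1 and Stt3a under another scale or filter or as shares of bases. With FPKM as deposited, 40.0% of changed gene totals were higher with JQ1 against 48.5% after rescaling. Depth most limits the shares with JQ1 of Kcnip2, Aspn and AABR07044364.1, with 197, 239 and 229 assigned bases in the lowest library. Other named genes were also low: Gar1, Ncf1 and Parp8 had 1444, 2003 and 3894 bases in the lowest JQ1 library. Kif5c had 3697 bases in the lowest DMSO library. The cause of the other differences was not tested.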
